A study of Homo sapiens with 8 samples.

Results

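HGC27 gastric carcinoma cells that overexpressed the p53 mutant R248Q were compared with HGC27 cells that overexpressed the p53 mutant R175H. Both groups were taken from the labels alone, and they account for 4 of the 8 libraries of the study, 2 for R248Q and 2 for R175H. R248Q exchanges an arginine that touches DNA for glutamine. R175H exchanges an arginine next to the zinc site for histidine and disturbs the fold of the DNA-binding domain. The remaining mutant, R273H, which like R248Q changes a residue that contacts DNA, and a GFP control had 2 libraries each. No GFP or R273H library entered a fold change, and their levels are given only for orientation. All 8 libraries share the established line HGC27, described by the labels as having no p53 of its own, and growth in alpha-MEM. The labels name neither the vector nor the promoter that drove overexpression, and they do not say whether a group was 1 clone or a pool, or whether its libraries came from separate cultures. The p-values therefore measure only the spread between these libraries, which may be technical. In each difference reported here, the kind of mutation and the strength of overexpression cannot be told apart.

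Total counts were 11659301 and 11599907 in the R248Q libraries, against 6800463 and 9017777 in the R175H libraries, so that R175H replicate 1 was the shallowest of the 8. Of 25435 genes in the table, 12984 had enough counts to be tested, and they held 99.9% of all counts. Levels are counts scaled to a fixed library size (CPM) with TMM factors, and are compared between libraries only, not between genes. A floor of 3 counts, which covers counting error only, equalled 0.257 CPM in R248Q replicate 1 and 0.441 CPM in R175H replicate 1. The chi-square per degree of freedom between the libraries of a group, which is 1 at pure sampling noise, was 1.21 in R248Q and 1.6 in R175H, against 1.51 in R273H and 5.72 in GFP. A gene was called when edgeR's quasi-likelihood test gave it a p below 0.05 after adjustment over all tested genes by the Benjamini-Hochberg method. Log2 fold changes are R248Q over R175H, with the SE from that model.

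As background, p53 is a transcription factor whose mutants in cancer either keep the fold of the DNA-binding domain and lose a contact with DNA, or lose the fold. The stress programmes below are controlled by a few factors. In hypoxia, the hypoxia-inducible factors HIF1A and EPAS1 escape hydroxylation by the EGLN oxygen sensors, pair with ARNT and switch on genes of glucose uptake, glycolysis and oxygen saving. ATF4 is the effector of the integrated stress response and drives amino acid synthesis, SREBP factors drive sterol and fatty acid synthesis, and HSF1 drives the cytosolic heat shock chaperones.

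In R248Q, 1268 genes were called higher, which is 9.77% of those tested, and 1305 genes were called lower, which is 10.1%. In either direction 2573 genes were called, 19.8% of those tested. Both R248Q libraries lay above both R175H libraries in 28.3% of tested genes and below both in 28.1%. Groups that do not overlap are therefore common and do not by themselves mark a gene. At an unadjusted p below 0.05 the counts were 1953 higher and 2026 lower. Most differences were small. At least 2-fold, 35 called genes were higher and 63 were lower, and 28 of those 35 had a mean level below 5 CPM. Of the 63 genes at least 2-fold lower, 35 had a mean of at least 5 CPM, and 15 belonged to the hypoxia lists described below. None of the 35 genes at least 2-fold higher did. The number of calls depended on how the spread was estimated: DESeq2 called 411 higher and 456 lower, and an edgeR fit to all 8 libraries, which shares the wider GFP spread, called 430 higher and 531 lower. Without R248Q replicate 1, 709 genes were called higher and 710 lower, and without R248Q replicate 2, 674 and 723. Without R175H replicate 2 the counts were 852 and 908, and without R175H replicate 1 they were 1205 and 1198. In bulk RNA, fewer cells of a type and less RNA per cell cannot be told apart.

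**Figure D1:**
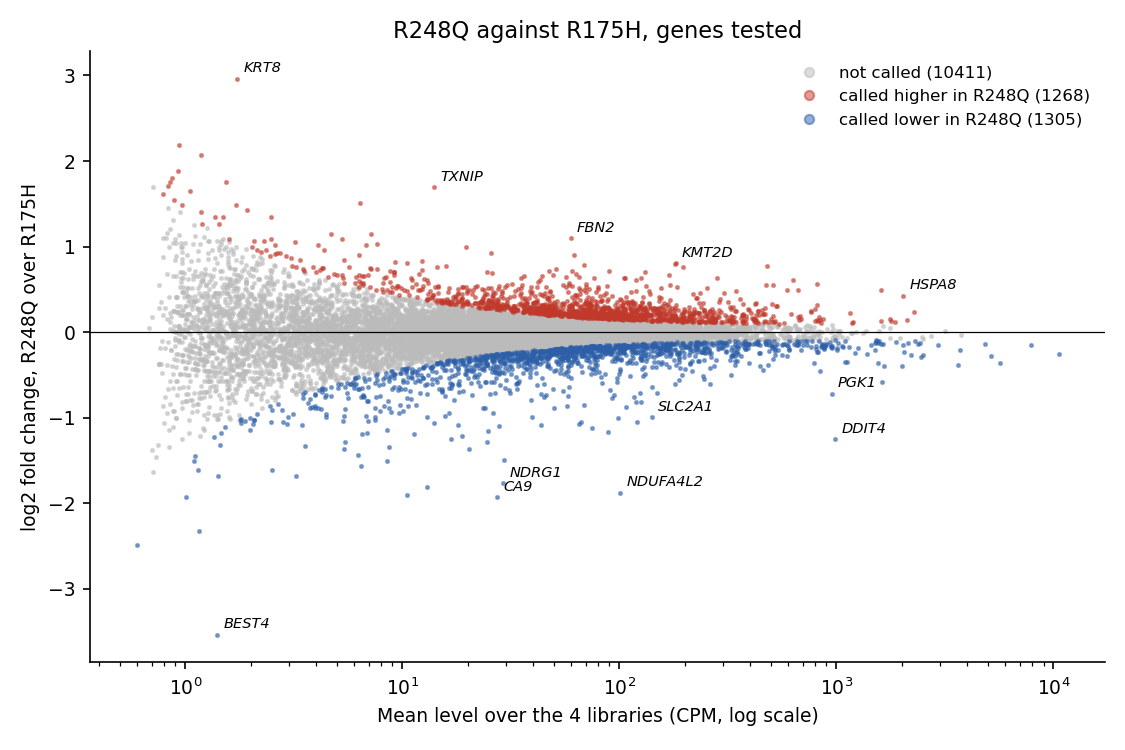
Each point is 1 of the tested genes, placed by its mean level over the 4 libraries (CPM, log scale) and its log2 fold change, R248Q over R175H. Genes called higher in R248Q (1268) are red and genes called lower (1305) are blue. Labelled points well below 0 include NDUFA4L2, DDIT4, NDRG1, CA9 and SLC2A1, and 28 of the 35 rises of at least 2-fold lie below 5 CPM.

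The tested genes were then read through lists of pathways, cell states and cell types. Over all tested genes the median log2 fold change was -0.000925 and the shares of called genes are those given above. Lists of hypoxia, ATF4, amino acid and sterol genes lay to the low side in R248Q, and lists of chaperones, matrix proteins and histone-modifying enzymes to the high side.

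**Figure D2:**
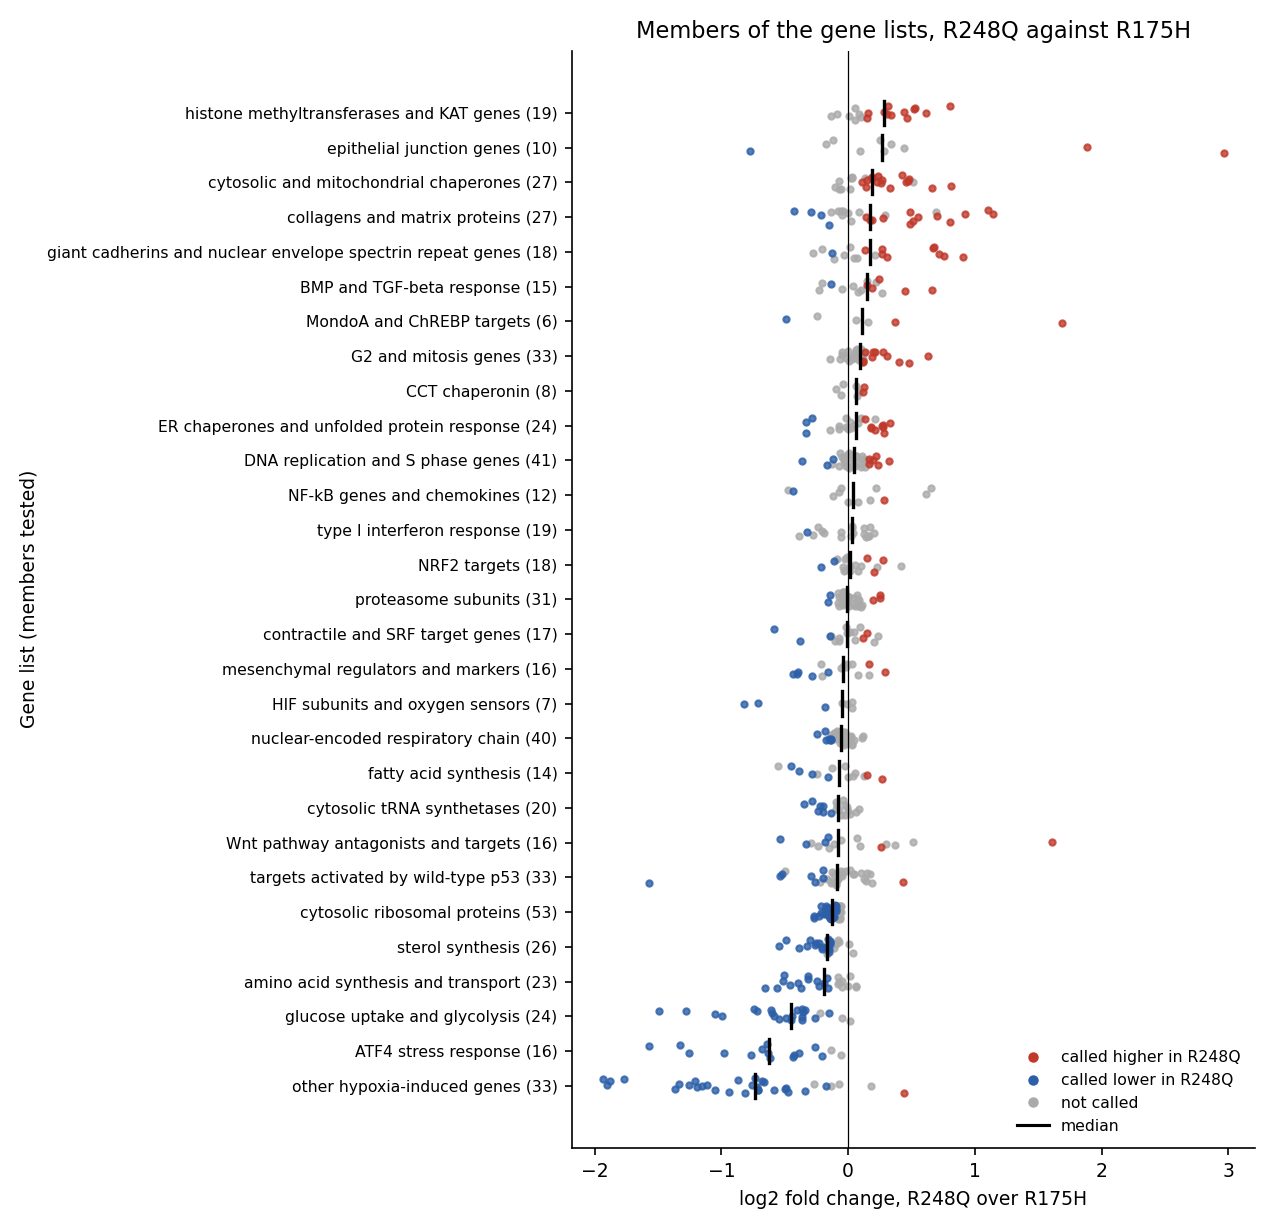
Each row is a gene list with the number of tested members in brackets, each point is 1 member, and the x axis is the log2 fold change, R248Q over R175H. The black bar is the median of the list. Medians run from -0.73 for the hypoxia-induced genes outside glycolysis to 0.28 for the histone methyltransferases and KAT genes (genes of lysine acetyltransferases).

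Among the lists, the largest median difference was that of hypoxia-induced genes, which were lower in R248Q. Of 33 tested hypoxia-induced genes outside glycolysis, 28 fell and 1 rose, with a median log2 fold change of -0.73. Of 24 genes of glucose uptake and glycolysis, 21 fell and none rose (median -0.45). Under every alternative run on the lists, at least 26 and at least 20 of these genes were called lower. The promoters of 4 called members show the letters that HIF reads. They were picked by lowest p within their lists and not by a match, with some members passed over as given under processing. The core of the hypoxia response element is ACGTG, and it is printed in capitals on either strand, as ACGTG or as CACGT. The windows are RefSeq sequences of build GRCh38.p14, from 250 bases before to 50 bases after the annotated start. They are DDIT4 at chr10:72273674-72273973, CA9 at chr9:35673678-35673977, BHLHE40 at chr3:4979187-4979486 and PGK1 at chrX:78103998-78104297, all on the plus strand.
DDIT4: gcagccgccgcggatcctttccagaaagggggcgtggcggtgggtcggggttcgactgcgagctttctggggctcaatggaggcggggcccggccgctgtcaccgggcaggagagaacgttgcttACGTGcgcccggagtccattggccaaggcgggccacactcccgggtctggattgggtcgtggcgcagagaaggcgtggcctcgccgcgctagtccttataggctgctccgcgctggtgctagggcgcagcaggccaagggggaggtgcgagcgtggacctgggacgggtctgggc
CA9: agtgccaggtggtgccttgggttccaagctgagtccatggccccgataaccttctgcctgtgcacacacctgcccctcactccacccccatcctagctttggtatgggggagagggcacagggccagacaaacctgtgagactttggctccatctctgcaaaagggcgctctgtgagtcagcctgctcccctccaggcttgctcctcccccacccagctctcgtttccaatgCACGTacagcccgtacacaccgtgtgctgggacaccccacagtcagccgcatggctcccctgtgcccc
BHLHE40: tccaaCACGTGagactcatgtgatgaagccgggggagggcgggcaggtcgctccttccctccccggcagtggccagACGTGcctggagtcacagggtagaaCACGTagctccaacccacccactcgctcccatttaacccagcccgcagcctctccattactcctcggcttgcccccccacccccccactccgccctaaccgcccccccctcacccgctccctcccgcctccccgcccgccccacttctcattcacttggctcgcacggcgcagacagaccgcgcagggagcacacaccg
PGK1: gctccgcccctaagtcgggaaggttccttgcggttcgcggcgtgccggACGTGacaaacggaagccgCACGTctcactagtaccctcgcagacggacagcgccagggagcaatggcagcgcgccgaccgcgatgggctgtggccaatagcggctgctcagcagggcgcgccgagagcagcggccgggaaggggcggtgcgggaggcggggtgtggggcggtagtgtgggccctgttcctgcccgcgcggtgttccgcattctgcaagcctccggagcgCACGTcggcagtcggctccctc

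DDIT4 held the core once, starting 125 bases before the start. CA9 held it once on the minus strand, 18 bases before the start, and PGK1 held it 3 times. In BHLHE40 it was found 4 times, and 2 of these finds are the palindrome CACGTG read on each strand. A promoter was available for 9570 of the 12984 tested genes. The core occurred in 16 of 25 hypoxia-induced genes outside glycolysis that had a promoter (64%), in 9 of 23 glycolysis genes (39.1%) and in 26.9% of all tested genes. It occurred in 28% of the genes called lower and in 27.1% of those called higher. A match describes the window and does not mark a site.

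The sensors and subunits came first. HIF1A, the regulated subunit, was at 130 and 131 CPM in R248Q and at 135 and 122 CPM in R175H, and the libraries overlapped. Its log2 fold change was 0.03 ± 0.05, with an adjusted p of 0.767 in edgeR's quasi-likelihood test. EPAS1 was near the floor in all 4 libraries. The sensor gene EGLN1, itself a HIF target, was at 83.1 and 89.1 CPM in R248Q, against 159 and 145 CPM in R175H. EGLN3, also a HIF target, was at 24.2 and 23.6 CPM in R248Q, against 37.4 and 40.5 CPM in R175H. For both sensors the R248Q libraries lay below the R175H libraries, and EGLN1 fell by 0.82 ± 0.05 on the log2 scale (adjusted p = 1.83e-30, edgeR quasi-likelihood). ARNT, the shared partner, fell by 0.18, a call lost under 8 alternatives, among them the loss of any single library. VHL and HIF1AN did not pass the test, at log2 fold changes of -0.01 and -0.05. HIF1AN has a long transcript, and with the length trend described below removed it was called lower, at -0.24, and the median of these sensors and subunits was -0.21 in place of -0.05. EGLN2, HIF3A and ARNT2 had too few counts to be tested, so that 3 of 7 tested subunits and sensors fell and none rose.

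Genes of glucose uptake and glycolysis fell at most steps of the pathway. SLC2A1, the main glucose transporter of most cells, was at 92.0 and 96.8 CPM in R248Q, against 188 and 187 CPM in R175H, a log2 fold change of -0.99 ± 0.05 (adjusted p = 1.77e-41, edgeR quasi-likelihood). PDK1, which shuts pyruvate out of the mitochondria, was at 16.3 and 14.6 CPM in R248Q, against 44.1 and 42.8 CPM in R175H, 2.82-fold lower. Neither gene's groups overlapped, and the R273H and GFP means, 15.1 and 15.4 CPM for PDK1, were near R248Q. The hexokinase HK2 (-0.60), the regulatory kinases PFKFB4 (-1.28) and PFKFB3 (-0.49), the aldolases ALDOC (-1.05) and ALDOA (-0.40), and the enolases ENO2 (-0.75) and ENO1 (-0.36) fell by these log2 fold changes. PGK1, the first step that returns ATP, was at 737 and 703 CPM in R248Q, against 1186 and 1182 CPM in R175H, and its fall of 0.72 ± 0.04 had an adjusted p of 1.38e-42 in edgeR's quasi-likelihood test. LDHA, which makes lactate, was at 1299 and 1287 CPM in R248Q, against 1874 and 2008 CPM in R175H, 1.5-fold lower. The members that did not pass were SLC16A3, PFKM and LDHB, at log2 fold changes of -0.23, -0.05 and 0.02. The smallest fall of a called member was that of GAPDH, at -0.15.

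Hypoxia genes outside glycolysis showed the largest falls at readable levels. CA9, a carbonic anhydrase on the cell surface that keeps pH steady, was at 11.5 and 11.3 CPM in R248Q, against 39.9 and 46.3 CPM in R175H. That is a log2 fold change of -1.93 ± 0.11, or 3.82-fold lower, with an adjusted p of 1.12e-37 in edgeR's quasi-likelihood test. NDUFA4L2, which lowers respiration in hypoxia, was at 42.4 and 44.1 CPM in R248Q, against 158 and 159 CPM in R175H, 3.67-fold lower. For both genes only the R175H libraries stood high: R273H averaged 10.5 CPM of CA9 and 43.3 CPM of NDUFA4L2, and GFP averaged 12.1 and 45.7 CPM.

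NDRG1, a growth arrest and stress gene of hypoxic cells, was at 12.3 and 14.1 CPM in R248Q, against 44.5 and 45.3 CPM in R175H. MIR210HG, from whose locus a microRNA of the hypoxia response is cut, was at 4.26 and 4.62 CPM in R248Q, against 16.7 and 16.6 CPM in R175H. BNIP3L, a mitophagy receptor, was at 46.8 and 47.8 CPM in R248Q, against 100.5 and 104 CPM in R175H. In each of these the pair of R248Q libraries lay below the pair of R175H libraries, with log2 fold changes of -1.77 for NDRG1, -1.90 for MIR210HG and -1.12 for BNIP3L. DDIT4, an inhibitor of mTORC1 that both HIF and ATF4 induce, was at 576 and 587 CPM in R248Q, against 1381 and 1391 CPM in R175H. Its log2 fold change of -1.26 ± 0.04 had an adjusted p of 3.51e-73 in edgeR's quasi-likelihood test.

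The angiogenic factor VEGFA was at 91.7 and 90.3 CPM in R248Q, against 172 and 150.5 CPM in R175H, a log2 fold change of -0.82. Other called falls were those of the vasoactive peptide ADM (-1.16), the circadian repressors BHLHE40 (-1.05) and BHLHE41 (-1.34), the histone demethylases KDM3A (-0.87) and KDM4B (-0.72), and the collagen hydroxylases P4HA1 (-0.71), P4HA2 (-0.66) and PLOD2 (-0.58). JMJD6, a hydroxylase, rose by 0.44 and was the single member of the list called higher. INSIG2, STC2, CA12 and ERRFI1 did not pass the test, at log2 fold changes of -0.27, -0.13, -0.07 and 0.18, and STC2 was called lower, at -0.18, with the length trend removed. BNIP3 had too few counts to be tested, with at most 2 counts in any library.

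TXNIP moved the other way. It is a brake on glucose uptake that MondoA switches on when glucose phosphates are plentiful. TXNIP was at 21.5 and 21.4 CPM in R248Q, against 6.19 and 6.95 CPM in R175H, 3.23-fold higher, with a log2 fold change of 1.69 ± 0.15 and an adjusted p of 1.7e-20 in edgeR's quasi-likelihood test. R273H averaged 21.4 CPM and GFP 31.6 CPM, so the R175H libraries were the low ones. MLXIP, the gene of MondoA, rose by 0.37. It has a long transcript, and its rise was 0.26, still called, with the length trend removed. MLX, the partner of MondoA, did not pass the test, at 0.06. Of the other tested targets, ARRDC3 fell by 0.49, a call lost with DESeq2 and without R175H replicate 2, and ARRDC4 and KLF10 did not pass, at 0.16 and -0.24. The MondoA list as a whole thus had 2 members higher and 1 lower among 6 tested.

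**Figure D3:**
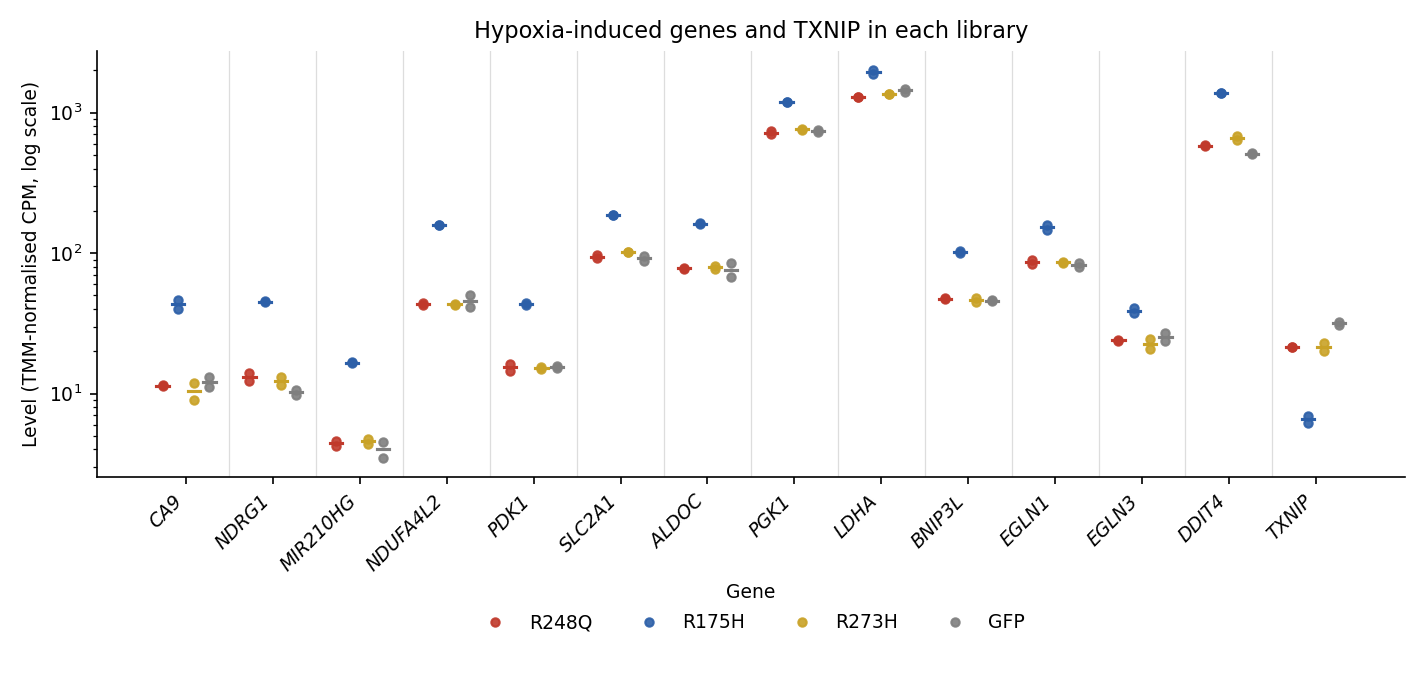
Points are single libraries and bars are means, in TMM-normalised CPM on a log axis, for R248Q, R175H, R273H and GFP from left to right within each gene. For all of the 13 hypoxia-induced genes shown, the R175H libraries lie above those of the other groups (CA9 at 39.9 and 46.3 CPM, against at most 13.0 CPM elsewhere), and for TXNIP they lie below them.

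The ATF4 stress response was also lower in R248Q. Of 16 tested members, 14 fell and none rose, with a median log2 fold change of -0.62. DDIT4 belongs to this list and to that of hypoxia. The C/EBP-ATF response element, searched as TGATGNAA on both strands, is printed in capitals in the promoters of a pair of called genes. Only promoters with a match could be chosen, ahead of list members with lower p-values, so its presence in this pair was set beforehand. CHAC1 is at chr15:40953221-40953520 on the plus strand, where the element lies on the opposite strand and reads TTGCATCA. ASNS is at chr7:97872359-97872658 on the minus strand, and both are again RefSeq sequence of GRCh38.p14.
CHAC1: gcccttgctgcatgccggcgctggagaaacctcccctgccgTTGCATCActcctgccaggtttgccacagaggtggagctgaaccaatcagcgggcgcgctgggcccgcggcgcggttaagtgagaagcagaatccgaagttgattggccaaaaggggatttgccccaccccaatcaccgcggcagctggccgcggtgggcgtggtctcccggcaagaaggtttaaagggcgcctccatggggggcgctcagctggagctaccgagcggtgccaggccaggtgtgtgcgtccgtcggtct
ASNS: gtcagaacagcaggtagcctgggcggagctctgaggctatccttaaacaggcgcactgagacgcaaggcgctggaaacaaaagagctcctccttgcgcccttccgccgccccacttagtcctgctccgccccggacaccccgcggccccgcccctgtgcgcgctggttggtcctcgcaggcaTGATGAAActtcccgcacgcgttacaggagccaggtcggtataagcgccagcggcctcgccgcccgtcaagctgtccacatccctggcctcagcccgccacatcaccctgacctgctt

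The element starts 209 bases before the start of CHAC1 and 68 bases before that of ASNS. It occurred in 3 of 15 promoters of the ATF4 list (20%), in 5 of 17 promoters of amino acid genes (29.4%) and in 1.58% of the promoters of all tested genes. Among genes called lower the share was 2.28%, and among genes called higher it was 0.916%.

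ATF4 itself was at 557 and 566 CPM in R248Q and at 555 and 613 CPM in R175H, with overlapping libraries and an adjusted p of 0.284 in edgeR's quasi-likelihood test. ATF4 is controlled largely at the level of translation, which RNA counts do not show. TRIB3, a pseudokinase that ATF4 induces, was at 68.2 and 69.0 CPM in R248Q, against 116 and 117 CPM in R175H, a log2 fold change of -0.77 ± 0.06 (adjusted p = 1.58e-25, edgeR quasi-likelihood). The stress regulators DDIT3 (-0.98), ATF3 (-0.63), ATF5 (-0.64) and CEBPB (-0.43) fell as well. CHAC1, which breaks down glutathione, was at 33.3 and 32.5 CPM in R248Q, against 52.3 and 48.9 CPM in R175H. Among secreted factors, GDF15 was at 2.98 and 3.42 CPM in R248Q, against 11.5 and 7.96 CPM in R175H, and FGF21 was at 1.87 and 2.22 CPM in R248Q, against 4.72 and 5.49 CPM in R175H. Both pairs of libraries were apart, at low counts. TRIB3 averaged 85.3 CPM in R273H, between the mutants compared, and 68.3 CPM in GFP.

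Amino acid genes fell by less. Of 23 tested genes of amino acid synthesis and transport, 14 fell and none rose, with a median of -0.19. ASNS, which makes asparagine, was at 270 and 272 CPM in R248Q, against 380 and 388 CPM in R175H, a log2 fold change of -0.51 ± 0.04 (adjusted p = 2.04e-23, edgeR quasi-likelihood). The mitochondrial enzymes PCK2 (-0.56), SHMT2 (-0.46) and MTHFD2 (-0.32), the serine enzymes PHGDH (-0.23) and PSAT1 (-0.17), the cysteine enzyme CTH (-0.66) and the transporter SLC1A4 (-0.52) also fell. The cystine transporter SLC7A11 did not pass, at 0.02. Of 20 cytosolic tRNA synthetases, which load amino acids onto tRNAs, 7 fell and none rose, with a median of -0.08; DARS (-0.35) and SARS (-0.28) fell most. The number of synthetases called lower was 5 without R248Q replicate 2 and 10 without R175H replicate 1.

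Sterol synthesis genes were lower in R248Q by small amounts. Of 26 tested members, 17 fell and none rose, with a median of -0.16. INSIG1, a sterol-regulated brake on SREBP processing, was at 197 and 203 CPM in R248Q, against 294 and 290.2 CPM in R175H, a log2 fold change of -0.55 ± 0.04 (adjusted p = 6.09e-24, edgeR quasi-likelihood). HMGCS1, an early enzyme of the mevalonate pathway, was at 283 and 292 CPM in R248Q, against 363 and 357 CPM in R175H. The sterol oxidase MSMO1 fell by 0.49, the squalene epoxidase SQLE by 0.25, and the factors SREBF1 and SREBF2 by 0.16 and 0.14. EBP and SC5D, of the last steps, did not pass the test, at -0.08 each. The count of 17 was 10 without either R248Q library, 10 with DESeq2 and 6 in the fit to all 8 libraries. The direction of the median held under every alternative. Of 14 genes of fatty acid synthesis, 4 fell and 2 rose: the desaturase SCD fell by 0.39 and the acetyl-CoA synthetase ACSS2 by 0.45, the carboxylase ACACA rose by 0.26, and FASN did not pass, at 0.05. The rise of ACACA was 0.12 with the length trend removed. The number of fatty acid genes called higher was 3 without R175H replicate 1 and 1 without any other single library.

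Chaperone genes were higher in R248Q. Of 27 tested cytosolic and mitochondrial chaperones and their regulators, 16 rose and none fell, with a median log2 fold change of 0.19. One promoter shows the letters that HSF1 reads. The core searched was GAANNTTC, which equals its own reverse complement, and it is printed in capitals in HSPA8 at chr11:123062087-123062386 on the minus strand (RefSeq, GRCh38.p14).
HSPA8: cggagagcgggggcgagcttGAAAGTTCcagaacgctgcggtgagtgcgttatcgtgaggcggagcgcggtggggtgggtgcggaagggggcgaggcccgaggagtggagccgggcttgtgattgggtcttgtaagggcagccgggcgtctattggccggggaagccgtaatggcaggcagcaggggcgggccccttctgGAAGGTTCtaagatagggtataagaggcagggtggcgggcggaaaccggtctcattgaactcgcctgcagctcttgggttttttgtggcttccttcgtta

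HSPA8 held the core at 230 and at 50 bases before its start. The core occurred in 8 of 24 promoters of the chaperone list (33.3%), in 4.98% of those of genes called higher, in 4.66% of those of genes called lower and in 4.51% of all.

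HSPA8, the constitutive HSP70, was at 2352 and 2299 CPM in R248Q, against 1722 and 1737 CPM in R175H, a log2 fold change of 0.43 ± 0.03 (adjusted p = 1.97e-23, edgeR quasi-likelihood). Its co-chaperone DNAJA1 averaged 273.1 ± 0.14 CPM in R248Q, against 198 ± 8.29 CPM in R175H (SD, n = 2 each). For HSPA8 and DNAJA1 the R175H libraries were again the ones apart, since R273H averaged 2347 CPM of HSPA8 and GFP 2644 CPM. HSPH1 (0.48), CHORDC1 (0.48), STIP1 (0.33), HSP90AA1 (0.24), DNAJB1 (0.26) and the mitochondrial chaperonin genes HSPE1 (0.23) and HSPD1 (0.11) rose. CRYAB, a small heat shock protein, was at 11.1 and 12.4 CPM in R248Q, against 6.34 and 6.95 CPM in R175H. HSPA1B rose by 0.66, but reads of HSPA1B and its near-identical copy HSPA1A may have been split by the counting, so that value is uncertain. HSF1, HSP90AB1 and HSPB1 did not pass the test, at -0.10, 0.01 and 0.03. Of 8 subunits of the CCT chaperonin, 2 rose, CCT6A by 0.12 and TCP1 by 0.13, and each lost its call without either R248Q library.

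In the endoplasmic reticulum the picture was mixed. Of 24 tested genes, 9 rose and 3 fell, with a median of 0.06. The luminal chaperone HSPA5 was at 566 and 556 CPM in R248Q, against 447 and 443 CPM in R175H, a log2 fold change of 0.33 ± 0.04 (adjusted p = 1.67e-13, edgeR quasi-likelihood). HSP90B1 (0.28), HYOU1 (0.26), PDIA4 (0.22), CALR (0.18) and MANF (0.28) rose, and these are chaperones and folding enzymes. The 3 that fell, EDEM1 (-0.33), HERPUD1 (-0.28) and EIF2AK3 (-0.33), serve degradation or sense stress. XBP1 and ATF6 did not pass, at -0.07 and -0.14, and ATF6 was called lower, at -0.23, with the length trend removed. Without R248Q replicate 2 the number that rose was 4, and without R248Q replicate 1 it was 6. Of 31 proteasome subunits, 3 rose and 2 fell, with a median of -0.01. Among proteasome subunits PSMD1, at 0.25, kept its call under every alternative, whereas PSMD11 lost it without R248Q replicate 2, PSMD12 without R248Q replicate 1 and PSMB3 without either.

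Cell cycle genes differed little. Of 33 tested genes of G2 and mitosis, 11 rose and none fell, with a median of 0.09. MKI67, the proliferation marker that coats mitotic chromosomes, was at 350 and 337 CPM in R248Q, against 232 and 213 CPM in R175H, a log2 fold change of 0.63 ± 0.04 (adjusted p = 2.18e-29, edgeR quasi-likelihood). The R273H mean was 259 CPM and the GFP mean 193 CPM, so the R248Q libraries were the high ones. CENPF (0.48), ASPM (0.40) and CENPE (0.31), which serve the kinetochore and spindle, rose, and like MKI67 they have long transcripts. With the length trend removed CENPF was at 0.33, ASPM at 0.24 and CENPE at 0.19, all still called. The cyclin CCNB1, the kinase CDK1 and the topoisomerase TOP2A did not pass, at 0.05, 0.06 and 0.08. Without R175H replicate 2 the count of 11 was 10, without R175H replicate 1 it was 14, and without R248Q replicates 1 and 2 in turn it was 5 and 6. Of 41 genes of DNA replication, 6 rose and 3 fell: the licensing factor CDT1 fell by 0.36, the flap endonuclease FEN1 rose by 0.22, and PCNA did not pass, at 0.05. Without R248Q replicate 1, 3 replication genes were called higher and 1 lower, and without R248Q replicate 2, 4 and 1.

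Genes of ribosomal proteins were slightly lower in R248Q. Of 53 tested, 36 fell and none rose, with a median of -0.13 and a range of -0.27 to -0.05. RPL3, next to the catalytic centre of the ribosome, was at 2276 and 2282 CPM in R248Q, against 2719 and 2768 CPM in R175H. The number called lower was 47 and 27 without R175H replicates 1 and 2 in turn, 8 and 14 without R248Q replicates 1 and 2, and 4 in the fit to all 8 libraries. These are short transcripts, with a median of 1171 nt, and after the length trend described below was removed 29 were called lower with a median of -0.09. Of 40 nuclear-encoded genes of the respiratory chain, 7 fell and none rose, with a median of -0.06. NDUFS7, a core subunit of complex I, fell by 0.24 and kept its call under every alternative. The number of respiratory chain genes called lower was 1 and 2 without R248Q replicates 1 and 2 in turn, and 11 and 3 without R175H replicates 1 and 2.

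Extracellular matrix genes differed in both directions. Of 27 tested genes, 13 rose and 4 fell, with a median of 0.17. FBN2, a microfibril protein, was at 80.5 and 82.2 CPM in R248Q, against 39.1 and 36.9 CPM in R175H, a log2 fold change of 1.10 ± 0.07 (adjusted p = 5.22e-31, edgeR quasi-likelihood). COL1A1, a chain of type I collagen, was at 1891 and 1873 CPM in R248Q, against 1291 and 1387 CPM in R175H, 1.4-fold higher. The R248Q libraries lay above the R175H libraries in both. COL1A1 was near the R248Q level in R273H, at a mean of 1852 CPM, and FBN2 was lower there, at a mean of 50.9 CPM. The basement membrane genes HSPG2 (0.71), LAMA5 (0.55), LAMA1 (0.81), LAMC1 (0.27) and AGRN (0.49) rose, as did POSTN (0.51), COL12A1 (0.92) and THBS1 (1.15). The fallers were the lysyl oxidases LOXL2 (-0.43) and LOXL1 (-0.29), which cross-link collagen, and COL6A1 (-0.15) and COL6A2 (-0.21). COL3A1, COL1A2 and FN1 did not pass, at -0.04, -0.13 and 0.08. With the length trend removed, COL3A1 and COL1A2 were called lower, at -0.09 and -0.17. The rises became smaller in the same step but kept their calls in the long genes named. HSPG2 was at 0.49, LAMA5 at 0.38, LAMA1 at 0.67, LAMC1 at 0.18 and AGRN at 0.40. COL12A1 was at 0.74, THBS1 at 1.05 and COL1A1 at 0.42. The list's median was 0.09 with the length trend removed, when 11 were called higher and 7 lower.

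Genes of the mesenchymal state did not move together. Of 16 tested, 5 fell and 2 rose. TWIST1, a mesenchymal transcription factor, was at 375 and 394 CPM in R248Q, against 516 and 494 CPM in R175H, a log2 fold change of -0.39 ± 0.04 (adjusted p = 3.59e-17, edgeR quasi-likelihood). The receptor AXL fell by 0.44, the protease MMP14 by 0.40 and the integrin ITGA5 by 0.16, whereas THY1 and TGFB1 rose by 0.29 and 0.16. No mesenchymal gene was called higher without R175H replicate 2 or without R248Q replicate 1, and 1 was without R248Q replicate 2. ZEB1, SNAI1 and SNAI2 did not pass, at -0.02, 0.17 and 0.08. VIM, the intermediate filament of mesenchymal cells, was at 4708 and 4606 CPM in R248Q, against 5727 and 5610 CPM in R175H. The antisense gene VIM-AS1 was at 2232 and 2192 CPM in R248Q, against 2765 and 2638 CPM in R175H; no source used here gives the strand setting of the counting, and the 2 genes cannot be told apart. Of 17 contractile genes, 2 rose and 3 fell: ACTA2 was at -0.58, a call lost with DESeq2, and MYH9 at 0.15 and FLNA at 0.11, both lost without either R248Q library and with the length trend removed. Without R248Q replicate 2, 1 contractile gene was called lower.

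**Figure D4:**
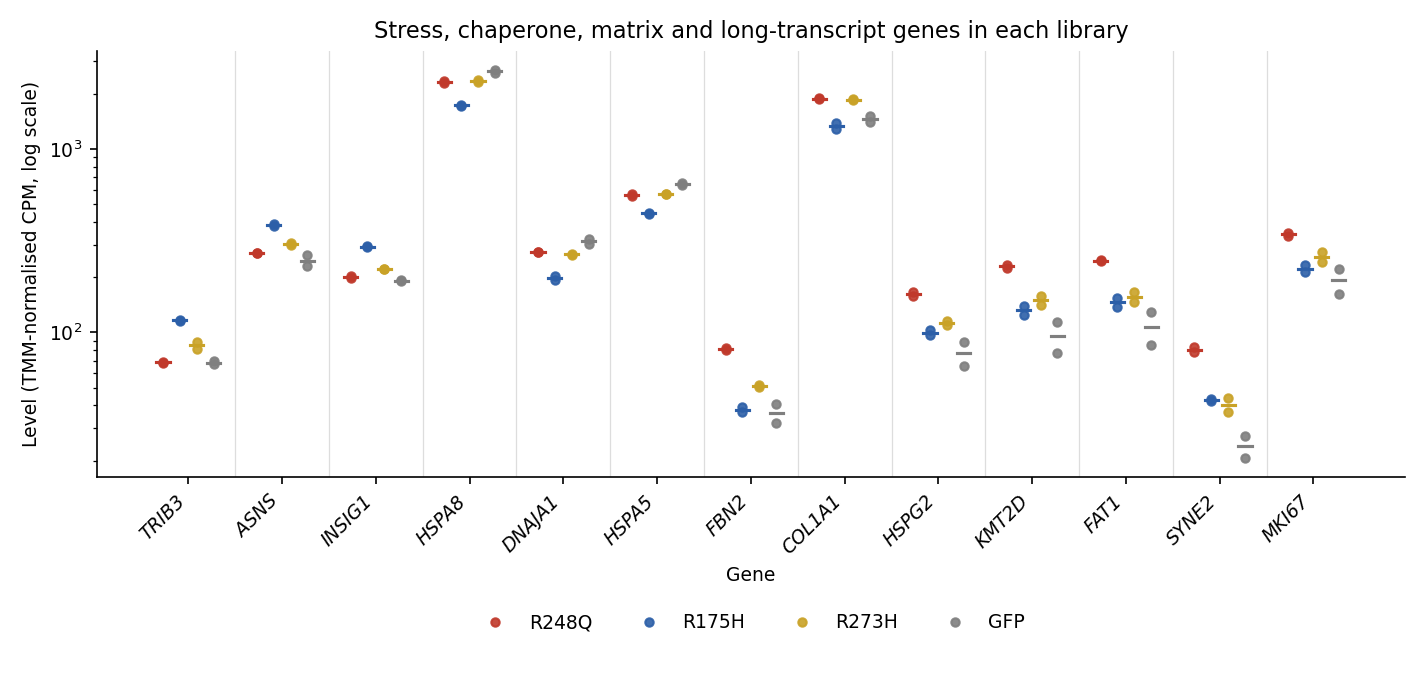
Points are single libraries and bars are means, in TMM-normalised CPM on a log axis, for R248Q, R175H, R273H and GFP from left to right within each gene. R175H stands apart from the other groups for HSPA8 (1722 and 1737 CPM, against means of 2347 CPM in R273H and 2644 CPM in GFP), and R248Q stands apart for MKI67, SYNE2 and KMT2D.

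Epithelial and signalling genes gave scattered calls. Of 10 tested epithelial junction genes, 2 rose and 1 fell. KRT8, a keratin of simple epithelia, had 72 counts over the R248Q libraries and 6 over the R175H libraries, a ratio of 8.16 with an exact 95% counting interval of 3.57 to 23.0. JUP, a junction plaque protein, had 34 counts in R248Q and 6 in R175H, and its call was lost without R175H replicate 2 and without R248Q replicate 2. The tight junction gene CLDN7 fell by 0.77. In the Wnt list, 2 of 16 rose and 4 fell: the feedback gene AXIN2 was at 158 and 158 CPM in R248Q, against 197 and 200 CPM in R175H, SFRP4 fell by 0.54, and CCND1, a cyclin, rose by 0.26. Of 15 genes of the BMP and TGF-beta response, 5 rose and 1 fell, among them the BMP target MSX2 (0.24) and the ligand BMP4 (0.66, a call lost with DESeq2, without R175H replicate 2 and without R248Q replicate 1). Without R248Q replicate 1 or without R175H replicate 2, the number of BMP and TGF-beta genes called higher was 2.

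Long transcripts were higher in R248Q as a class. Among well-counted genes with a transcript of at least 8000 nt, 34.1% were called higher and 4.52% lower, and the median log2 fold change was 0.11 over 907 genes. Among those under 1000 nt, 2.61% were called higher and 20.9% lower, with a median of -0.06 over 306 genes. The classes between, which start at 1000, 2000 and 4000 nt, had medians of -0.06, -0.02 and 0.03. The median length was 5326 nt for genes called higher and 2667 nt for genes called lower. Within R248Q the median deviation from the gene mean in the longest class was 0.067 and 0.053 on the log2 scale. Within R175H it was -0.038 in replicate 1 and -0.087 in replicate 2, so the size of the trend differed between these libraries. Removing a smooth trend on length from each library brought the median of the longest class to -0.03. Of all 1061 tested genes of at least 8000 nt, well counted or not, 317 were called higher and 48 lower in the main test. With the trend removed, 140 of those 317 were still called higher, and 170 of the 1061 were called lower. With the trend kept, leaving out 1 library at a time gave medians of 0.09 to 0.15 in the longest class.

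**Figure D5:**
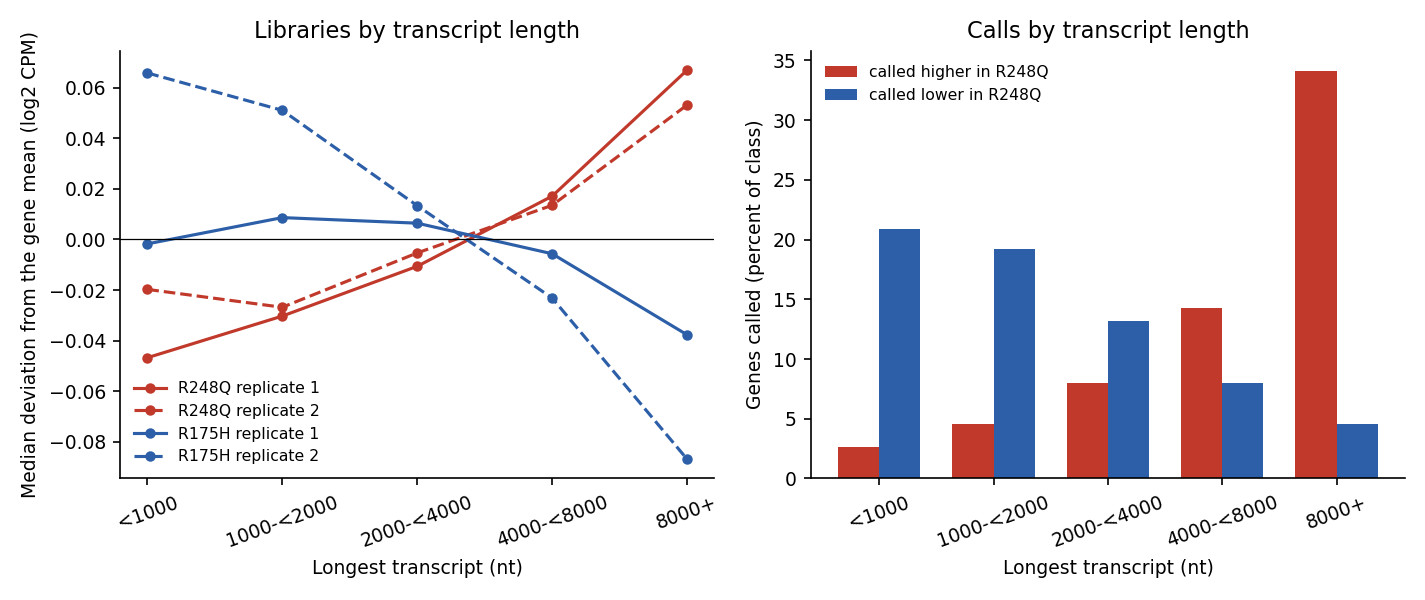
Left, the median deviation of each library from the gene mean (log2 CPM) by class of longest transcript (nt), for R248Q and R175H. Right, the percentage of each class called higher (red) or lower (blue) in R248Q, from 2.61% and 20.9% under 1000 nt to 34.1% and 4.52% at 8000 nt or more.

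Several lists of long genes moved with that class. Of 19 genes of histone methyltransferases and acetyltransferases, with a median length of 8408.5 nt, 12 rose and none fell, with a median log2 fold change of 0.28. KMT2D, which methylates enhancer histones, was at 225 and 233 CPM in R248Q, against 139 and 125 CPM in R175H, a log2 fold change of 0.80 ± 0.05 (adjusted p = 6.63e-34, edgeR quasi-likelihood). With the length trend removed the value for KMT2D was 0.54, still called. KMT2A (0.61), ASH1L (0.52), SETD1B (0.53), KMT2C (0.46) and the acetyltransferases EP300 (0.44) and CREBBP (0.34) rose, and KAT6A, KAT6B and KMT2E did not pass, at 0.05, -0.14 and 0.01. With the length trend removed KMT2A was at 0.38, ASH1L at 0.34, KMT2C at 0.23, EP300 at 0.30 and CREBBP at 0.18, all still called, and KAT6B was called lower, at -0.24. After removal of the trend this list had a median of 0.17, with 10 called higher and 2 lower.

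Of 18 giant cadherins, spectrin repeat proteins and nuclear envelope genes, with a median length of 12147.5 nt, 9 rose and 1 fell, with a median of 0.17. SYNE2, which ties the nucleus to actin, was at 83.2 and 77.9 CPM in R248Q, against 42.3 and 43.5 CPM in R175H, and its log2 fold change of 0.90 was 0.63 with the length trend removed. The giant cadherin FAT1 was at 244 and 247 CPM in R248Q, against 154 and 138 CPM in R175H, and its value of 0.76 became 0.54. The R248Q libraries were also above the R273H and GFP means of FAT1, 156 and 107 CPM. MACF1 (0.67), DST (0.72) and FAT4 (0.67) rose, LMNA fell by 0.13, and SYNE1, at -0.21, did not pass. With the trend removed MACF1 was at 0.38, and DST and FAT4 at 0.44 each, all still called. With the trend removed the median of this list was 0.08, with 6 called higher and 3 lower. MKI67 and FBN2, both long, stood at 0.44 and 0.94 after the same step and kept their calls.

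Targets activated by wild-type p53 differed little between the mutants. Of 33 tested, 7 fell and 1 rose, with a median of -0.09. CDKN1A, the cell cycle inhibitor that p53 induces, was at 10.6 and 12.2 CPM in R248Q and at 9.73 and 10.2 CPM in R175H, with an adjusted p of 0.443 in edgeR's quasi-likelihood test. MDM2, the ubiquitin ligase of p53, was at 23.8 and 20.9 CPM in R248Q and at 20.9 and 20.1 CPM in R175H, and did not pass either. The members that fell included GDF15 and SESN2, which are also in the ATF4 list, PLK2 (-0.52) and BBC3 (-0.53), and the nuclease gene AEN rose by 0.43. The call of SESN2 was lost without either R248Q library. Of these p53 targets, 3 were called lower without R248Q replicate 1 and 4 without any other single library. In the remaining stress lists few genes passed: 3 of 18 NRF2 targets rose and 2 fell, 1 of 12 NF-kB genes rose and 1 fell, and 1 of 19 interferon genes fell. NFKB2 (-0.44), FTL (-0.22) and TXNRD1 (0.20) kept their calls under every alternative, and the interferon gene IFITM1 (-0.32) and the NF-kB inhibitor NFKBIB (0.28) lost theirs without R248Q replicate 2 or R175H replicate 2, among other settings.

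Markers of other cells were checked beside these results. The defining epithelial markers CDH1 and EPCAM had at most 3 counts in any library. Levels were summed over the tested members of each list only. These were 3 of 18 gastric differentiation markers, 3 of 12 blood cell, 2 of 10 endothelial, and 3 of 12 HEK293 and neural markers. The gastric sum, made up of GATA4, GATA6 and CDX2, was 62.0 and 57.8 CPM in R248Q, against 66.0 and 58.6 CPM in R175H. For this sum the groups overlapped. The gastric markers MUC6, TFF1, TFF2, GKN1 and PGC had at most 2 counts in any library. The blood cell list summed to 14.7 and 15.4 CPM in R248Q, against 13.6 and 14.3 CPM in R175H, and PTPRC had at most 5 counts in any library. The endothelial list summed to 2.98 and 2.57 CPM in R248Q and 3.83 and 2.91 CPM in R175H. The list of HEK293 and neural markers summed to 201 and 201 CPM in R248Q, against 183 and 180 CPM in R175H, most of it TUBB3, which rose by 0.13. Of the 11 members of these lists that were tested, 2 rose, LIN28B and TUBB3, and 2 fell, GATA6 among them, and all 4 lost their calls without R248Q replicate 2, among other settings. No mitochondrially encoded gene was analysed here.

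The largest changes outside the lists were mostly those of genes with few counts. BEST4, a chloride channel of the gut, had 5 counts over the R248Q libraries and 41 over the R175H libraries, a ratio of 12.1 in favour of R175H with an exact 95% counting interval of 4.77 to 39.1. SOX15, a transcription factor, had 45 counts in R248Q and 7 in R175H. APLN, a peptide of the vasculature, was better read, at 5.96 and 5.65 CPM in R248Q, against 19.9 and 20.6 CPM in R175H, a log2 fold change of -1.81 ± 0.15 (adjusted p = 3.51e-22, edgeR quasi-likelihood). GRIK3, a kainate receptor subunit, was at 9.70 and 9.16 CPM in R248Q, against 3.39 and 3.25 CPM in R175H. Both genes had groups that did not overlap, which alone is common among the tested genes. Of the other large fallers RIMKLA, SLC1A1 and TCP11L2 kept their calls under every alternative. TOX3 lost its call without R175H replicate 2, and RENBP without that library or R248Q replicate 2. Of the other large risers, SERPINI1, SCUBE3, LAT, MAGEE1, DNAH7 and ARSI lost their calls without R248Q replicate 2, among other settings, TNNC1 without R248Q replicate 2 and NLGN3 with DESeq2. In all, 129 of 146 named genes were called, and 89 of the 129 kept their call under every alternative.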

How the data were processed

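The study sequenced mRNA from HGC27 cells in 4 groups of 2 libraries, prepared with a Kapa mRNA kit per the labels' protocols. The authors deposited raw counts of reads by gene symbol, as whole numbers whose totals differ between libraries. The submitters' processing notes name bcl2fastq, the aligner STAR 2.5 and the build hg19. The counting tool, annotation and strand setting are not given in the sources used, which leaves overlapping, antisense and near-identical genes uncertain.

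Counts of the 4 R248Q and R175H libraries were fitted in R 4.3.3 with edgeR 4.0.16 (filterByExpr at a count of 10 and a total of 15, TMM factors of 0.988 to 1.01, glmQLFit and glmQLFTest, Benjamini-Hochberg adjustment over 12984 genes). The residual degrees of freedom were 2 and the median prior ones 157, and the common biological coefficient of variation was 2.21%. Each SE was derived by dividing the size of the log2 fold change by the root of its F value, and an SD lies between the 2 libraries of a group. Levels shown in CPM use TMM over all 8 libraries. Depth was 6800463 to 11788035 counts per library, and the most abundant gene, EEF2, held at most 1.16% of a library. Low-count ratios carry an exact binomial 95% interval, which covers counting error only.

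Alternatives were DESeq2's size factors in edgeR, library size alone, a filter of at least 1 count, a mean of at least 1 CPM, DESeq2 1.42.0, limma-voom 3.58.1, fits to 6 or 8 libraries, a replicate block, leaving out each library, a log2 fold change of at least 1 (for the counts over all genes only), thinning to the shallowest library, and removal of a loess trend (span 0.3) on transcript length. Lengths are of the longest GENCODE 29 transcript, matched by symbol for 93.4% of tested genes, and length classes use genes with a log2 CPM above 3. Promoters are from RefSeq, build GRCh38.p14, matched by symbol. Printed promoters were those of the list members with the lowest p-values. Members without a promoter, on chromosome 8 or with a name starting in MIR were passed over. For the C/EBP-ATF response element, members without a match or already printed were passed over too. The code was tested on simulated counts.

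The groups compared, the gene lists and the motifs were chosen with earlier results of these data known. Named genes were the 12 largest called rises and 12 largest called falls with a mean of at least 1 CPM and no overlap between groups, and the 4 lowest p-values in each list; genes with antisense or placeholder names were passed over. Other list members are examples chosen after their values were seen. A few genes are not reported here.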

Additional observations from a re-analysis of the deposited data

How the results depend on the processing

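The calls rest on a spread estimated from 4 libraries that differed little within their groups, and the counts of calls moved with that estimate. Against 1268 genes higher and 1305 lower, there were 731 and 734 with a filter of at least 1 count, 411 and 456 with DESeq2, 430 and 531 in the fit to all 8 libraries, and 35 and 63 at a log2 fold change of at least 1. Leaving out 1 library at a time gave 674 to 1205 genes higher and 710 to 1198 lower. Of 17 sterol genes lower, 11 were called with a filter of at least 1 count, 10 with DESeq2, 6 in the fit to all 8 libraries and 10 to 15 with a library left out. Of 11 G2 and mitosis genes higher, the counts were 7, 5 and 5 in those 3 fits and 5 to 14 with a library left out. Of 36 ribosomal protein genes lower, 4 were called in the fit to all 8 libraries and 8 to 47 with a library left out. The median of transcripts of at least 8000 nt reversed, at -0.0305 with the length trend removed, by construction of that step, against 0.0894 to 0.149 with a library left out. Library size alone moved the median of all genes by 0.02 and called 1514 higher and 1052 lower. The counts of hypoxia, glycolysis, ATF4 and amino acid genes called lower, and of chaperone, matrix and histone-modifying genes called higher, stayed within 1.5 times their main value under every alternative run on them; matrix genes called lower went to 7 against 4, and histone-modifying genes called lower to 2 against 0, with the length trend removed.

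The replicate numbers were not taken as pairing the libraries: the deviations of same-numbered libraries correlated at 0.0507 over 10134 genes, with only 2 pairs. A fit with the replicate block called 1323 genes higher and 1356 lower and lost none of the 129 named calls. R175H replicate 1, at 6800463 counts, limits the genes with few counts; thinning every library to that depth called 914 higher and 944 lower.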

Other observations

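The genes in this part were picked after their values were seen, so their values are descriptions only. Enzymes of glycogen storage were lower in R248Q. GBE1, which branches glycogen, was at 42.6 and 39.3 CPM in R248Q, against 73.7 and 74.9 CPM in R175H. PGM1, which links glucose phosphates to glycogen, was at 73.8 and 68.0 CPM in R248Q, against 120.4 and 116 CPM in R175H. The log2 fold changes were -0.86 ± 0.07 for GBE1, -0.74 ± 0.06 for PGM1, -0.35 ± 0.05 for the synthase GYS1 and -1.17 ± 0.20 for the scaffold PPP1R3C (SE, n = 2 per group). The priming protein GYG1 was at -0.02. Genes known to be switched on when growth factor or nutrient signalling is low were lower in R248Q too. FBXO32, a ubiquitin ligase of atrophying muscle, was at 10.9 and 8.90 CPM in R248Q, against 23.4 and 23.5 CPM in R175H. The cyclin-like gene CCNG2 was at 14.2 and 18.8 CPM in R248Q, against 31.4 and 30.0 CPM in R175H, and the mTOR inhibitor DEPTOR was at 38.6 and 38.2 CPM in R248Q, against 59.0 and 62.4 CPM in R175H. In these genes the groups did not overlap, and R248Q lay below R175H without overlap in 28.1% of all tested genes. SESN1 and SESN3, of the same kind, were at log2 fold changes of -0.13 and 0.07.

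Classical MHC class I genes, which present peptides to T cells, were lower in R248Q. HLA-C was at 64.0 and 68.9 CPM in R248Q, against 99.1 and 101 CPM in R175H, and HLA-B was at 79.2 and 80.4 CPM in R248Q, against 109.7 and 121 CPM in R175H. R273H averaged 77.4 CPM of HLA-C and GFP 79.5 CPM, between the mutants compared. B2M, the shared light chain, was at -0.05 and the peptide transporter gene TAP2 at 0.25 on the log2 scale. HLA genes are near-identical copies of each other, so reads may have been split between them.

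Single genes outside the lists with clear differences were NRN1, a neuronal surface protein, at 55.4 and 54.2 CPM in R248Q, against 120 and 125 CPM in R175H, and the calcium-binding protein CALB2, at 65.0 and 67.2 CPM in R248Q, against 126 and 137 CPM in R175H. CALB2 was also high in GFP, at 131 and 122 CPM, which NRN1 was not, at 65.6 and 47.2 CPM. Higher in R248Q were the splicing factor SRSF2, at 414 and 400 CPM, against 314 and 306 CPM in R175H, and the secreted MFGE8, at 79.2 and 80.9 CPM in R248Q, against 50.6 and 51.3 CPM in R175H.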
